A study of Mus musculus with 24 samples.

Results

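The transcripts of 50 genes of the Wnt signalling system were examined in mouse muscle stem cells and their cultured progeny. In each setting a group with reduced transcript of the chromatin remodeller Chd4 was set beside a control group. The 50 genes were taken from a list of names: 16 Wnt ligands, 12 receptors, 8 secreted antagonists, 7 genes of the R-spondin module and 7 cytoplasmic and nuclear regulators. The rule names the genes and uses no measured value, although the list was drawn up with earlier results of these data known. All 50 were found among the 46078 genes of each of the 2 expression tables.

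Wnt ligands are secreted lipid-modified proteins that bind Frizzled receptors and the co-receptors Lrp5 and Lrp6. In the canonical branch, receptor binding stops the Axin and Apc destruction complex from degrading beta-catenin, which then enters the nucleus and joins the Tcf and Lef DNA-binding proteins, while other Wnt ligands act through planar polarity and calcium branches. In skeletal muscle, Wnt signals are known to take part in satellite cell expansion, differentiation and the behaviour of the surrounding mesenchymal cells.

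Chd4 is an ATPase of the NuRD chromatin remodelling and deacetylase complex. In culture, proliferating primary myoblasts derived from satellite cells of resting, non-injured muscle of C57BL/6 mice were treated for 72 h with adenovirus carrying CRE (AdCRE, 4 samples) or GFP (AdGFP, 4 samples). All of these myoblasts carried the genotype Chd4fl/fl, so the AdGFP controls also had floxed Chd4 alleles. In the animal, satellite cells were sorted as SCA1-, CD45-, alpha7-integrin+ and CD34+ cells 3 days after muscle injury with cardiotoxin from mice labelled Chd4dPax7ER (4 samples) or Chd4fl/fl (4 samples). All donor mice were 2 to 4 months old. The labels do not spell out Pax7ER, which names the satellite cell gene Pax7, and nothing in the sources used here says whether the Chd4fl/fl mice carried a Cre or received an inducing agent. Only the case virus carried Cre and only the case genotype names Pax7ER, so effects of Cre and of Chd4 loss cannot be told apart. Nothing in the labels states that each replicate had its own animal or culture, and the p-values below reflect no more than the variation among the libraries, which may be technical.

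The values were RPKM, reads per kilobase of transcript scaled to the mapped reads of each library. Chd4 (ENSMUSG00000063870) measured 20.8 ± 3.49 RPKM in AdCRE and 75.1 ± 7.75 in AdGFP cultures (SD, n = 4 each; limma log2 difference -1.84, adjusted p = 0.00374). In sorted cells it measured 56.7 ± 8.37 in Chd4dPax7ER and 126 ± 6.77 in Chd4fl/fl (SD, n = 4 each; limma log2 difference -1.16, adjusted p = 0.000152). The groups did not overlap in either setting (2-sided exact permutation p = 0.0286 in each, the smallest that 70 arrangements allow). Read totals are not given in the tables, but in the culture table the repeated ratios of low values gave depths relative to AdCRE replicate 1 of 0.862 to 1.03 in AdCRE and 0.799 to 1.31 in AdGFP libraries. Summed RPKM ran from 288659 to 326812 in culture and from 286802 to 306114 in sorted cells. The 2 tables were normalized separately, so no level was tested between them. In these bulk samples fewer cells of a type and less RNA per cell cannot be told apart.

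A gene was tested where at least 4 of the 8 libraries of a table reached 0.5 RPKM, and was called where the limma p-value adjusted over all tested genes (Benjamini-Hochberg) was under 0.05. A gene with a mean under 0.5 RPKM in both groups of a table is described as not expressed there. By this measure 15 of the 50 genes were not expressed in either setting: Wnt1, Wnt2, Wnt2b, Wnt3, Wnt3a, Wnt6, Wnt7a, Wnt16, Fzd10, Frzb, Dkk1, Rspo1, Rspo2, Rnf43 and Nkd1. A further 8 were not expressed in culture (Wnt10a, Wnt11, Sfrp1, Sfrp4, Sfrp5, Dkk2, Axin2 and Lgr5), and a further 4 not in sorted cells (Wnt4, Wnt5a, Rspo3 and Lef1). Wnt11 was tested in culture despite its low means, since 4 libraries reached 0.5 RPKM there, and was not called. Wnt3a and Dkk1 were listed at 0 in every library of both tables.

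The first question was which Wnt genes differ between Chd4dPax7ER and Chd4fl/fl satellite cells of injured muscle. In the sorted cells, 3 ligand transcripts were higher in Chd4dPax7ER: Wnt10b, Wnt7b and Wnt9a. The transcription factor gene Tcf7 was higher as well, and the R-spondin receptor gene Lgr5 was lower. These 5 were all that passed of the 26 Wnt genes tested, 19.2%, beside 26.6% of all 13344 genes tested. The counts by direction were 4 higher, where 14.7% of all genes were higher, and 1 lower, where 11.9% of all genes were lower. Of the 5, Wnt10b reached the level for testing only through the case libraries and Lgr5 only through the controls, so these 2 had to differ to be tested, and the counts support nothing about the Wnt genes as a group. The median log2 difference of the 26 was 0.09 and that of all genes tested was -0.02.

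The 3 ligand genes lie on chromosomes 15 and 11. In RefSeq on GRCm38.p6, Wnt10b occupies chr15:98770712-98778206, Wnt7b chr15:85535437-85581821, Wnt9a chr11:59306849-59333552, Tcf7 chr11:52246527-52283383 and Lgr5 chr10:115450314-115587780, and each is annotated as protein-coding. RefSeq promoter windows, from 250 bases before to 50 bases after a transcript start, were matched for 3 of the 5 genes (Wnt10b, Wnt9a and Tcf7). The windows were searched on both strands for the Tcf/Lef words (CTTTGAA or CTTTGAT, and likewise CTTTGTA or CTTTGTT) and for the E-box CANNTG, the core letters bound by basic helix-loop-helix factors such as MyoD. The word CAGCTG was also counted and is contained in CANNTG. The bases before the annotated gene are shown for the 2 called ligands that have such a window; capitals mark E-boxes, and each is written 5′ to 3′ on its gene's strand. They cover chr15:98778207-98778400 on the minus strand for Wnt10b and chr11:59306680-59306848 on the plus strand for Wnt9a.

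Wnt10b: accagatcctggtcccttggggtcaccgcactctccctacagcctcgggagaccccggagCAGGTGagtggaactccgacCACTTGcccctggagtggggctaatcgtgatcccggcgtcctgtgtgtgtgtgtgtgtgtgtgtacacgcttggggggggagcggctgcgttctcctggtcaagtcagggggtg

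Wnt9a: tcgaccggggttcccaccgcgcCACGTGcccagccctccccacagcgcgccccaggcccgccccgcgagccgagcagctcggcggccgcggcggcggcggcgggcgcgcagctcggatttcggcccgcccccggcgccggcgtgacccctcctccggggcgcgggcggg

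The whole Wnt10b window held 2 E-boxes, which begin 190 and 170 bases before the start used in the table. The Wnt9a window also held 2, of which 1 lies past the stretch shown and reads CAGCTG. The Tcf7 window held 1 E-box, also CAGCTG, but this window fell wholly inside the annotated gene. There the word directly follows the letters ATGCCG, in frame with that ATG, so it may be coding rather than promoter sequence. Of all 27025 promoter windows searched, 72.1% held an E-box, 16.1% held CAGCTG and 16.9% held a Tcf/Lef word. No Tcf/Lef word stood in any of the 3 windows.

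Wnt10b (ENSMUSG00000022996) encodes a canonical Wnt ligand known for restraining adipogenic fate and favouring osteoblast and muscle fate. It measured 2.57, 4.46, 4.04 and 5.85 RPKM in the 4 Chd4dPax7ER libraries and 0.34, 0.14, 0 and 0.13 in the 4 Chd4fl/fl libraries. Every case library stood above every control library, and every control library lay under the 0.5 RPKM used for testing. The means were 4.23 ± 1.35 and 0.152 ± 0.14 RPKM (SD, n = 4 each). Their ratio of 27.7 rests on a control mean under that level. The limma log2 difference on the log2(RPKM + 0.5) scale was 2.83 (SE 0.26, adjusted p = 0.000175).

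Wnt7b (ENSMUSG00000022382) encodes a ligand used in lung, kidney and bone development. Its 4 Chd4dPax7ER libraries read 3.77, 3.20, 4.90 and 5.14 RPKM, and its 4 Chd4fl/fl libraries 0.54, 0.97, 0.45 and 0.93. The groups were well separated and Wnt7b was detected in each library. The means were 4.25 ± 0.921 and 0.723 ± 0.266 RPKM (SD, n = 4 each), a ratio of 5.89, with a limma log2 difference of 1.96 (SE 0.22, adjusted p = 0.000388).

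Wnt9a (ENSMUSG00000000126), a ligand known from joint and blood stem cell formation, differed less. It read 1.84, 2.06, 2.74 and 1.78 RPKM in Chd4dPax7ER and 1.42, 1.38, 1.25 and 1.19 in Chd4fl/fl. The highest control lay just under the lowest case. The limma log2 difference was 0.51 (SE 0.17, adjusted p = 0.0485), and the call was lost whichever of the 8 libraries was left out (adjusted p up to 0.109).

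Wnt10a, the close relative of Wnt10b, was the ligand with the highest mean in Chd4fl/fl cells and was not called. It measured 2.81, 2.82, 0.68 and 3.27 RPKM in Chd4fl/fl and 2.79, 1.39, 0.63 and 0.90 in Chd4dPax7ER. The groups overlapped widely, and replicate 3 was the lowest in each. The limma log2 difference was -0.58 (95% interval -1.55 to 0.40, adjusted p = 0.357).

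Other ligands were near the detection limit. Wnt11, a ligand of the non-canonical branch, was not tested because too few libraries reached 0.5 RPKM. It read 0.70, 0.98, 1.06 and 0.41 RPKM in Chd4dPax7ER and 0.09, 0.39, 0.14 and 0.40 in Chd4fl/fl, so the lowest case library lay just above the highest control. With no filter on low values its limma adjusted p was 0.0799. Wnt5b measured 0.23 ± 0.173 RPKM in Chd4dPax7ER and 0.608 ± 0.395 in Chd4fl/fl (SD, n = 4 each), and these groups overlapped.

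Summed over all 16 ligands, the Chd4dPax7ER libraries held 12.5, 13.8, 14.8 and 15.3 RPKM and the Chd4fl/fl libraries 6.20, 7.37, 3.25 and 7.76. These sums include the called genes Wnt7b and Wnt10b, so their separation says nothing about the ligands as a class. The composition of that sum differed too, but it likewise includes these called genes. By mean level the order in Chd4dPax7ER was Wnt7b, Wnt10b, Wnt9a, Wnt10a and Wnt11, and in Chd4fl/fl it was Wnt10a, Wnt9a, Wnt7b and Wnt5b. Single libraries departed from these orders. In Chd4fl/fl replicate 3, Wnt10a (0.68 RPKM) lay below Wnt9a (1.25). In Chd4dPax7ER replicate 1, Wnt10a (2.79 RPKM) lay above Wnt10b (2.57). Wnt10a made up 39.0% of the ligand sum in Chd4fl/fl, and Wnt7b 30.2% in Chd4dPax7ER.

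**Figure D1:**
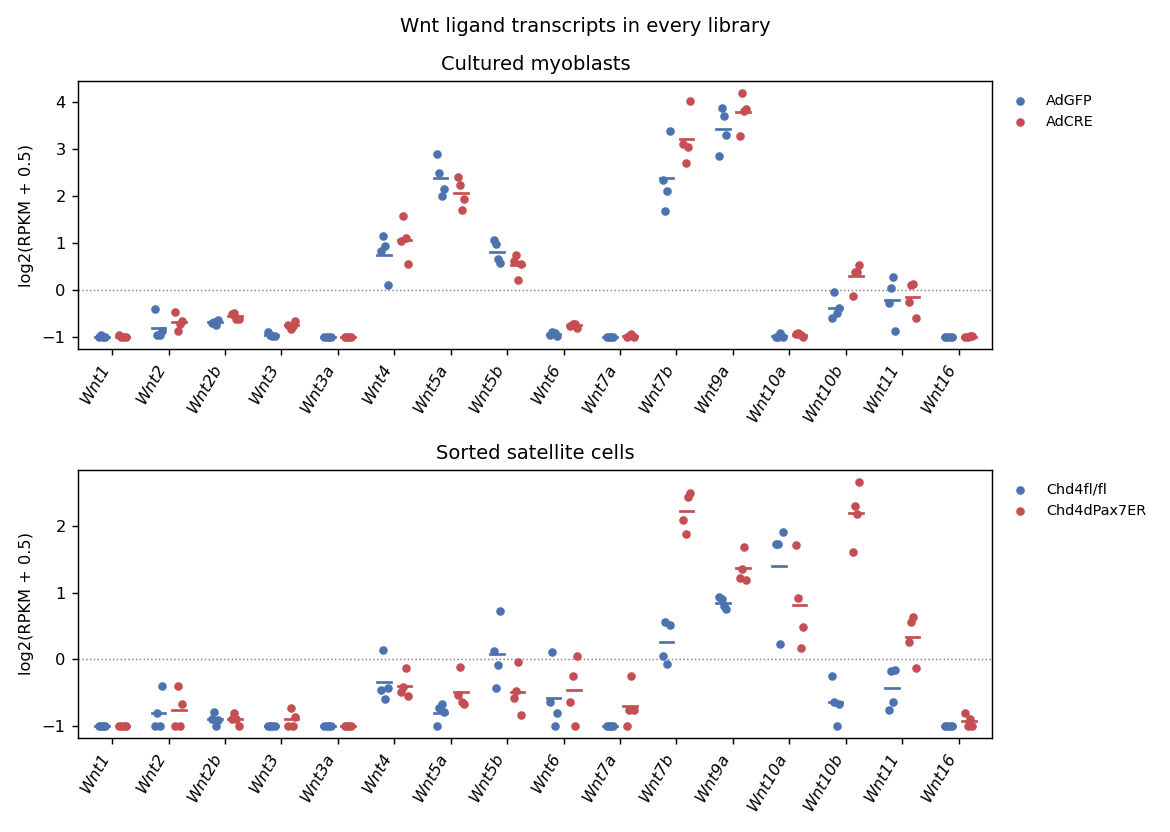
RPKM of the 16 Wnt ligands in every library, as log2(RPKM + 0.5), for cultured myoblasts (upper panel) and sorted satellite cells (lower panel); points are libraries, short bars are means of 4, and the dotted line marks 0.5 RPKM. In sorted cells the Wnt7b and Wnt10b points of Chd4dPax7ER lie clear of those of Chd4fl/fl, whereas the Wnt10a points overlap.

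The sorted Chd4dPax7ER libraries also held more transcript of several marker lists. Beside the counts below, 14.7% of all genes tested in sorted cells were higher and 11.9% lower. Lists with only 2 or 3 tested genes say little about a cell type. Summed markers of myofibres ran from 1310 to 3282 RPKM in Chd4dPax7ER and from 297 to 623 in Chd4fl/fl, with 10 of 10 tested genes higher. For fibro-adipogenic progenitors and fibroblasts the sums were 307 to 509 and 132 to 183 RPKM, with 6 of 13 tested genes higher. Pericyte and smooth muscle markers summed to 587 to 948 and 277 to 471 RPKM (4 of 8 higher), and Schwann cell and glial markers to 43.0 to 93.1 and 22.3 to 35.8 RPKM (4 of 7 higher). Satellite cell markers summed to 1637 to 2196 and 917 to 1238 RPKM, with 5 of 11 higher (Myod1, Myog, Itga7, Sdc4 and Des) and Pax7 lower. Pax7, the transcription factor that defines satellite cells, measured 11.5 ± 2.94 RPKM in Chd4dPax7ER and 21.3 ± 6.43 in Chd4fl/fl (SD, n = 4 each; limma adjusted p = 0.0301). Leukocyte markers overlapped, at 101 to 208 and 83.9 to 149 RPKM (0 of 11 called), as did tenocyte markers, at 10.8 to 40.0 and 9.31 to 11.5 RPKM (0 of 3 called). Endothelial markers summed to 8.20 to 15.0 and 4.18 to 8.06 RPKM (1 of 3 higher). Epithelial markers were lower, at 3.93 to 11.2 against 14.4 to 25.4 RPKM (2 of 2 lower), with Krt14 and Krt5 listed at 0 in every library. Some of these lists share genes with satellite cells, such as Des. The part of these lists in the differences of the Wnt genes was not tested.

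Among the 12 receptors, 11 were expressed and tested in sorted cells and none was called by limma, beside 26.6% of all genes tested, with 2 at an unadjusted p under 0.05. The co-receptor Lrp6 was the highest, at 17.0, 20.0, 24.3 and 20.9 RPKM in Chd4dPax7ER and 24.4, 21.1, 23.5 and 20.1 in Chd4fl/fl. Its groups overlapped (limma log2 difference -0.12, 95% interval -0.37 to 0.14). Fzd7, the receptor through which Wnt7a acts on satellite cells, followed with 14.3 ± 2.72 and 15.3 ± 1.60 RPKM (SD, n = 4 each). Fzd5 was closest to a call: it read 4.61, 4.65, 5.54 and 5.21 RPKM in Chd4dPax7ER and 3.26, 3.57, 4.39 and 3.71 in Chd4fl/fl. Its groups did not overlap, as was true of 30.3% of all genes tested, and its limma log2 difference was 0.38 (adjusted p = 0.0518). Fzd5 was called in 3 of 8 alternative fits and in 1 of 8 that left out a library, at least as often as Wnt9a (3 and 0). Fzd1 had a log2 difference of -0.44 (95% interval -0.84 to -0.04, limma adjusted p = 0.0996). The other 7 tested receptors, Fzd2, Fzd3, Fzd4, Fzd6, Fzd8, Fzd9 and Lrp5, had log2 differences between -0.45 and 0.56. Summed over the 12 receptors, Chd4dPax7ER libraries held 57.7 to 70.0 RPKM and Chd4fl/fl libraries 61.6 to 68.0, so the sums overlapped.

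**Figure D2:**
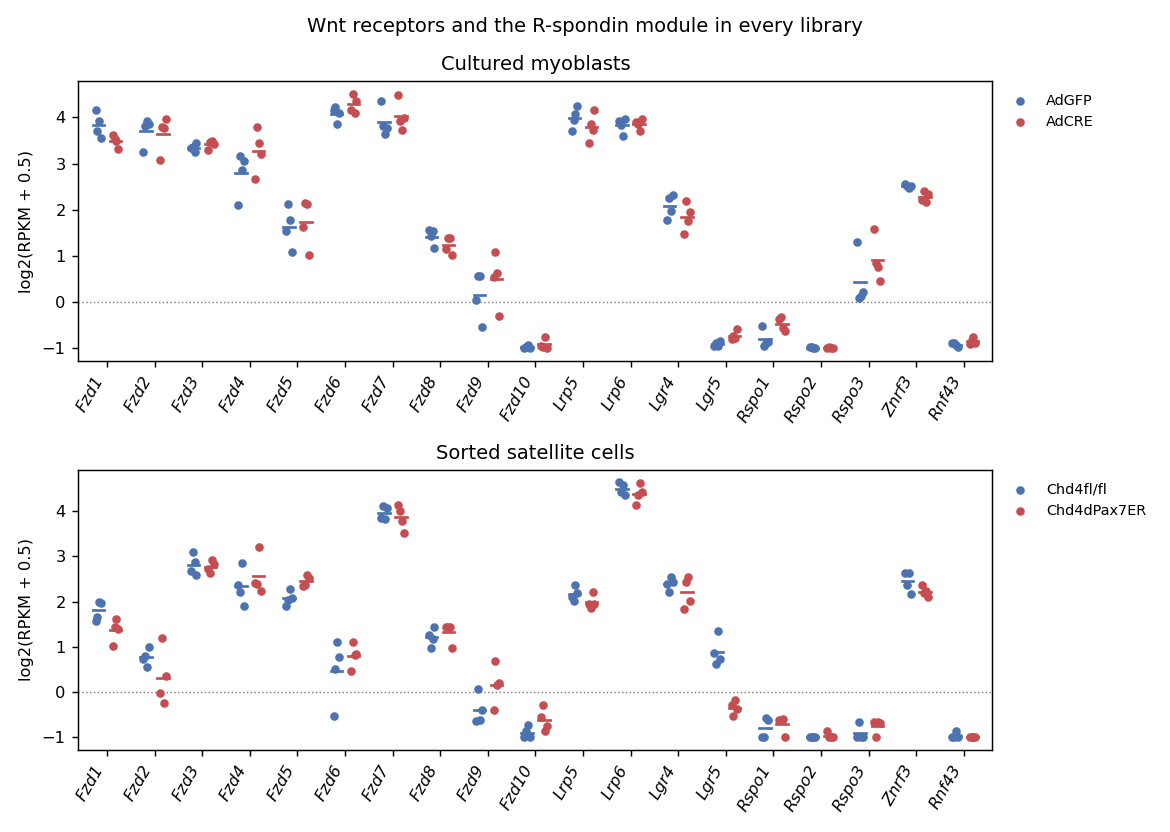
RPKM of the 12 receptors and the 7 genes of the R-spondin module in every library, as log2(RPKM + 0.5), for cultured myoblasts (upper panel) and sorted satellite cells (lower panel); points are libraries, short bars are means of 4, and the dotted line marks 0.5 RPKM. Lrp6 and Fzd7 are the highest receptors in sorted cells, and Lgr5 is the gene whose sorted-cell groups stand farthest apart.

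The R-spondin module sets how many Wnt receptors stay at the surface: Rnf43 and Znrf3 are ubiquitin ligases that remove Frizzled, and R-spondins bound to Lgr receptors inhibit them. Lgr5 (ENSMUSG00000020140), a stem cell marker in gut epithelium, read 0.32, 0.19, 0.38 and 0.27 RPKM in Chd4dPax7ER and 1.31, 1.03, 2.06 and 1.16 in Chd4fl/fl. Each case library lay below each control library. The limma log2 difference was -1.23 (SE 0.22, adjusted p = 0.00388), and Lgr5 reached the level for testing only in the controls. Lgr4 read 3.05, 4.88, 5.38 and 3.53 RPKM in Chd4dPax7ER and 4.78, 4.11, 5.33 and 4.89 in Chd4fl/fl and was not called. Znrf3 read 4.63, 4.07, 4.21 and 3.78 and then 5.66, 4.63, 5.72 and 4.00 RPKM in the same order, and was not called either (limma log2 difference -0.23, 95% interval -0.54 to 0.09). The R-spondin genes Rspo1, Rspo2 and Rspo3 were all under 0.2 RPKM in each sorted-cell library.

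The secreted antagonists bind Wnt proteins (the Sfrp family and Frzb) or block Lrp5 and Lrp6 (Dkk1 and Dkk2). Of the 8, only Sfrp1, Sfrp2 and Sfrp4 could be tested in sorted cells, and 0 were called by limma (1 at an unadjusted p under 0.05). Of all genes tested, 26.6% were called, so 0 of 3 says little about the antagonists. Sfrp1 was the highest in Chd4dPax7ER, at 2.02, 1.94, 3.39 and 1.29 RPKM against 0.97, 1.16, 1.41 and 1.34 in Chd4fl/fl. Its groups overlapped at one library, and the limma log2 difference was 0.58 (95% interval 0.04 to 1.12, adjusted p = 0.104). Sfrp2, the highest in Chd4fl/fl, read 0.59, 1.62, 1.16 and 1.64 RPKM there and 1.60, 2.35, 1.29 and 0.69 in Chd4dPax7ER, which overlapped. Dkk2 was too low for the test but did not overlap, at 0.61, 0.76, 1.71 and 0.40 RPKM in Chd4dPax7ER and 0.09, 0.13, 0 and 0.28 in Chd4fl/fl. With no filter on low values, Dkk2 had a limma log2 difference of 1.07 (adjusted p = 0.0449). Dkk3, a divergent family member, read 0.40, 1.02, 0.41 and 0.35 RPKM and 0 to 0.31 in Chd4fl/fl (limma adjusted p = 0.219 with no filter).

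Of the cytoplasmic and nuclear regulators, Tcf7 was called. Tcf7 (ENSMUSG00000000782) encodes Tcf1, a beta-catenin partner best known from T cell development. It read 15.91, 18.24, 20.83 and 18.65 RPKM in Chd4dPax7ER and 13.23, 11.09, 13.47 and 15.65 in Chd4fl/fl, so the highest control lay just below the lowest case. The limma log2 difference was 0.45 (SE 0.12, adjusted p = 0.0218). The call was lost without Chd4dPax7ER replicate 3 (adjusted p = 0.0529) or without Chd4fl/fl replicate 2 (adjusted p = 0.0548). Tcf7l1 and Tcf7l2, which encode the related Tcf3 and Tcf4 proteins, had log2 differences of 0.32 and 0.29 and were not called.

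Axin1, the destruction complex scaffold, had the highest mean of the group, at 28.4, 24.8, 28.9 and 29.7 RPKM in Chd4dPax7ER and 32.2, 28.9, 33.3 and 28.3 in Chd4fl/fl. These overlapped (limma log2 difference -0.13, 95% interval -0.32 to 0.06). Axin2, a feedback inhibitor widely used as a readout of canonical Wnt signalling, read 1.85, 2.03, 1.85 and 1.78 RPKM in Chd4dPax7ER and 2.69, 2.1, 1.24 and 3.06 in Chd4fl/fl. The case values were tightly grouped inside the control range (limma log2 difference -0.17, 95% interval -0.68 to 0.33, adjusted p = 0.610). Nkd1, Rnf43 and Lef1 were not expressed in the sorted cells, whereas Znrf3 was expressed and not called.

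**Figure D3:**
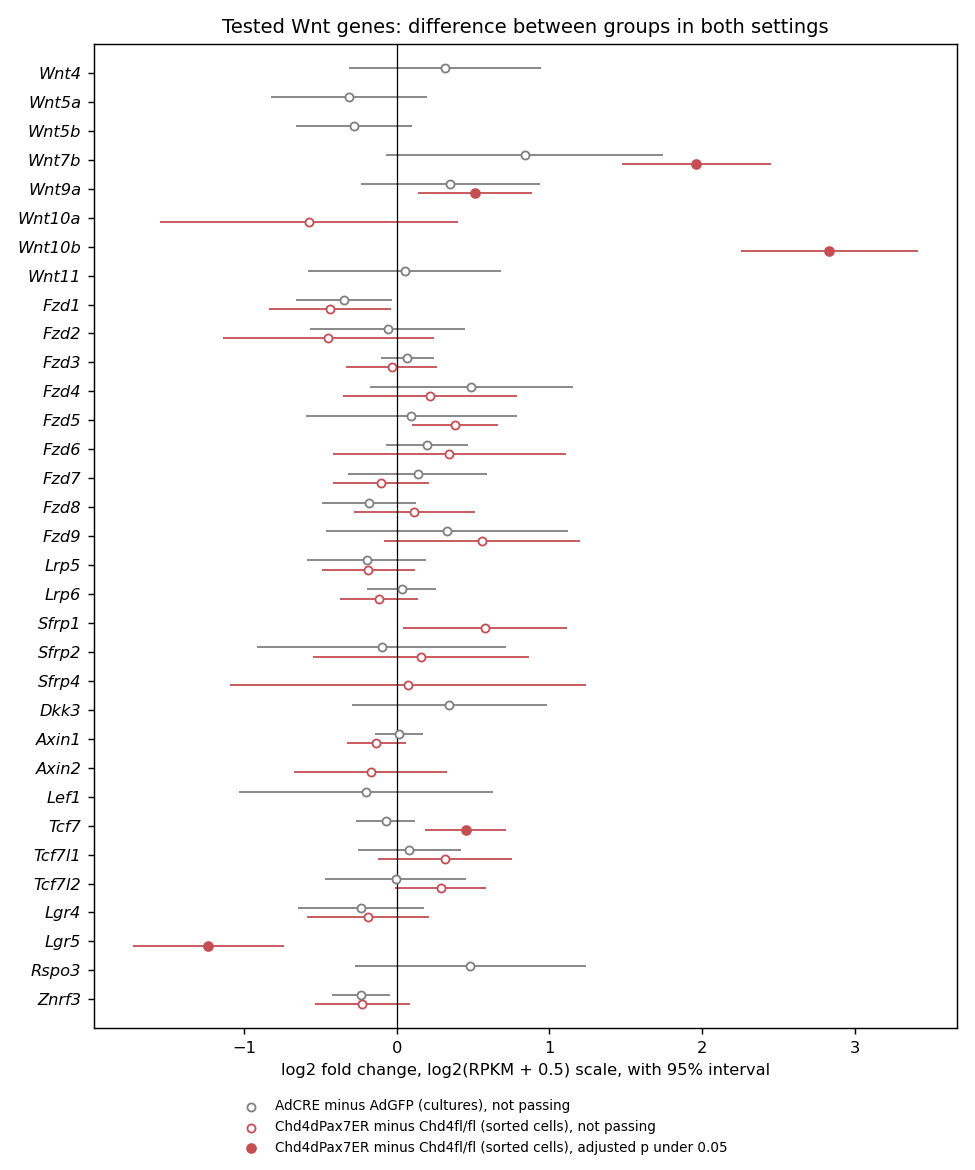
Log2 difference between groups, on the log2(RPKM + 0.5) scale, with its 95% interval for each Wnt gene tested in culture (grey, AdCRE minus AdGFP) and in sorted cells (red, Chd4dPax7ER minus Chd4fl/fl); filled points have a limma adjusted p under 0.05. The 5 filled points are Wnt10b, Wnt7b, Wnt9a and Tcf7 to the right of 0 and Lgr5 to the left, and no culture point is filled in this fit without pairs.

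The second comparison asked which Wnt genes differ between AdCRE and AdGFP cultures of myoblasts. Without regard to replicate number, limma called 0 of 27 tested Wnt genes, beside 0.656% of all 13567 genes tested, and 2 (Fzd1 and Znrf3) had an unadjusted p under 0.05. Cultures with the same replicate number deviated together (correlation of deviations 0.711 to 0.856), so the fit with the replicate as a block is given beside it. With the block, limma called 13 of 27, 48.1%, where 36.2% of all genes were called: 8 were higher in AdCRE and 5 lower (17.5% and 18.7% of all genes). The 8 were Wnt7b, Wnt9a, Wnt4, Fzd4, Fzd6, Fzd7, Rspo3 and Dkk3, and the 5 were Wnt5a, Fzd1, Lrp5, Lgr4 and Znrf3. Of these 13, only Wnt7b, Wnt9a, Wnt5a, Fzd1 and Fzd4 were called whichever pair was left out. The 27 had a median log2 difference of 0.03, and all genes tested had -0.01. In culture the summed markers overlapped between groups for 8 of the 9 marker lists, with 2 of 6 tested fibroblast markers and 1 of 6 pericyte markers higher in AdCRE by limma without the block. With the block, limma called 8 of 9 tested myofibre markers higher in AdCRE, among them Acta1, Ckm and Pvalb, where the summed myofibre markers ran from 1193 to 4810 RPKM in AdCRE and from 925 to 3918 in AdGFP. The block also called 4 of 6 fibroblast markers higher and Col3a1 lower, 3 of 6 pericyte markers higher, and Tek, Cd68, Erbb3 and Krt18 of the endothelial, leukocyte, Schwann cell and epithelial lists higher. Of the 10 satellite cell markers tested, the block called Myog higher and Myf5 and Vcam1 lower, and it called 0 of 2 tenocyte markers. Endothelial markers summed to 2.06 to 3.51 RPKM in AdCRE and 1.15 to 1.68 in AdGFP, with Emcn and Tie1 listed at 0. Dpt, Mfap5, Kera, Adgre1, C1qa, C1qb, S100a9 and Cdh19 of the other lists were also listed at 0 in every culture. The part of these lists in the culture results was not tested.

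Ligands in culture were led by Wnt9a, which made up 43.7% of the ligand sum in AdCRE and 44.0% in AdGFP. It read 9.23, 17.6, 13.5 and 13.9 RPKM in AdCRE replicates 1 to 4 and 6.73, 14.2, 12.5 and 9.30 in the AdGFP cultures of the same numbers. AdCRE was the higher in each pair although the groups overlapped (blocked limma log2 difference 0.35, SE 0.07, adjusted p = 0.00992). Wnt7b read 8.09, 5.99, 7.70 and 15.7 RPKM in AdCRE and 4.59, 2.69, 3.82 and 9.87 in AdGFP. Here too each AdCRE culture was above its partner, and replicate 4 was the highest of each group. The blocked limma log2 difference of Wnt7b was 0.84 (SE 0.07, adjusted p = 0.00047), and without the block its adjusted p was 0.359.

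Wnt5a, a ligand of the non-canonical branch, moved the other way. It read 4.77, 4.19, 2.75 and 3.32 RPKM in AdCRE and 6.90, 5.07, 3.52 and 3.93 in AdGFP. It was lower in 4 of 4 pairs (blocked limma log2 difference -0.31, adjusted p = 0.00982; 0.555 without the block). Wnt4, known from kidney and gonad development, read 1.56, 2.48, 1.66 and 0.979 RPKM in AdCRE and 1.27, 1.72, 1.42 and 0.578 in AdGFP. It was higher in 4 of 4 pairs (blocked limma adjusted p = 0.0272; 0.641 without the block). Wnt5b was lower in 4 of 4 pairs and not called (blocked limma adjusted p = 0.0679). Of the 27 genes, 17 moved in 1 direction in all 4 pairs, 63.0%, as did 52.2% of all genes.

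Wnt10b was low in culture. It read 0.419, 0.805, 0.799 and 0.957 RPKM in AdCRE and 0.165, 0.470, 0.219 and 0.265 in AdGFP. It was higher in AdCRE in 4 of 4 pairs, with means of 0.745 ± 0.229 and 0.280 ± 0.133 RPKM (SD, n = 4 each). Too few libraries reached 0.5 RPKM for it to be tested. With no filter on low values its limma log2 difference was 0.67 (adjusted p = 0.228, and 0.0306 with the block).

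Receptors in culture were spread over many Frizzleds at similar RPKM. Fzd6, the highest by mean, read 17.4, 22.3, 16.7 and 19.9 RPKM in AdCRE and 17.4, 18.3, 13.9 and 16.6 in AdGFP (blocked limma log2 difference 0.20, adjusted p = 0.0300). Replicate 1 was level in both groups and the other pairs were higher in AdCRE. Fzd4, the receptor for norrin as well as for Wnts, read 5.86, 13.4, 10.4 and 8.78 RPKM in AdCRE and 3.83, 8.44, 6.74 and 7.76 in AdGFP. It was higher in 4 of 4 pairs (blocked limma log2 difference 0.49, adjusted p = 0.00454; 0.469 without the block).

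Fzd7 read 21.8, 14.6, 12.8 and 15.4 RPKM in AdCRE and 20.0, 13.5, 12 and 13.1 in AdGFP, a small difference in each pair (blocked limma log2 difference 0.14, adjusted p = 0.0425). Fzd7 was not called when any pair was left out. Fzd1 read 11.8, 11.0, 10.8 and 9.49 RPKM in AdCRE and 17.5, 12.6, 14.7 and 11.2 in AdGFP. It was lower in 4 of 4 pairs (blocked limma log2 difference -0.34, adjusted p = 0.00814; 0.281 without the block). Lrp5 read 10.3, 14, 12.8 and 17.5 RPKM in AdCRE and 12.6, 15.0, 16.3 and 18.6 in AdGFP, lower in 4 of 4 pairs (blocked limma log2 difference -0.20, adjusted p = 0.0303; 0.636 without the block). Its partner Lrp6 measured 14 ± 1.11 and 13.8 ± 1.52 RPKM (SD, n = 4 each) and was not called in either fit.

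In the R-spondin module, Znrf3 was the only tested Wnt gene whose culture groups did not overlap, as was true of 10% of all genes tested. It read 4.16, 4.81, 3.97 and 4.55 RPKM in AdCRE and 5.38, 5.21, 5.03 and 5.26 in AdGFP (limma log2 difference -0.23, adjusted p = 0.241, and 0.0219 with the block). Lgr4 read 2.29, 4.10, 2.88 and 3.36 RPKM in AdCRE and 2.95, 4.25, 3.44 and 4.46 in AdGFP (blocked limma adjusted p = 0.0375; 0.590 without the block). Rspo3, a secreted R-spondin, read 2.48, 1.31, 1.20 and 0.878 RPKM in AdCRE and 1.95, 0.565, 0.590 and 0.668 in AdGFP. Replicate 1 stood above the others in both groups, and AdCRE was the higher in each pair (blocked limma log2 difference 0.48, adjusted p = 0.0170; 0.534 without the block).

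The antagonists were low in culture. Sfrp2, the highest, read 1.11, 1.53, 0.425 and 1.21 RPKM in AdCRE and 1.54, 1.96, 0.383 and 1.03 in AdGFP, without a common direction over the pairs. Dkk3 read 0.342, 0.956, 0.566 and 1.23 RPKM in AdCRE and 0.219, 0.667, 0.316 and 0.776 in AdGFP (blocked limma log2 difference 0.34, adjusted p = 0.0312; 0.611 without the block). It was higher in 4 of 4 pairs.

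None of the 5 tested cytoplasmic and nuclear regulators was called in culture by limma in either fit. Of all genes tested, 0.656% were called without the block and 36.2% with it. Axin1 read 21.8, 24, 24.2 and 22.6 RPKM in AdCRE and 22.2, 21.9, 24.9 and 22.6 in AdGFP. Tcf7 measured 13.2 ± 0.524 and 14 ± 1.46 RPKM (SD, n = 4 each; limma log2 difference -0.07, 95% interval -0.27 to 0.12). Lef1 was expressed in culture, unlike in sorted cells, and replicate 1 of each group (3.97 RPKM in AdCRE, 5.04 in AdGFP) stood above the others, which ran from 1.34 to 2.00. Axin2 was at most 0.169 RPKM in any culture.

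**Figure D4:**
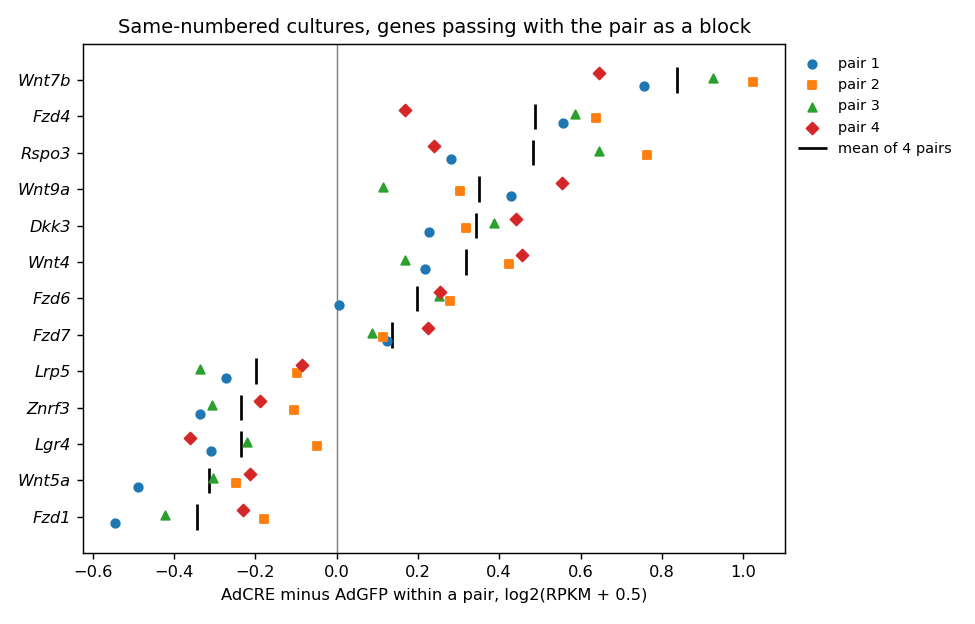
Difference of AdCRE minus AdGFP within each pair of same-numbered cultures, on the log2(RPKM + 0.5) scale, for the 13 Wnt genes called with the pair as a block; symbols are pairs and black ticks are means of the 4 pairs. Wnt7b has the largest difference above 0 in each of the 4 pairs, at least 0.65, and Fzd6 in pair 1 lies next to 0.

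The third comparison asked whether the 2 settings differ in their effects. It used 1 limma model over 16 libraries, with the effect in sorted cells minus the effect in culture taken as the difference. Limma called 0 of the 20 Wnt genes tested in both settings, where 4.12% of 11941 genes were called, and 2 had an unadjusted p under 0.05. Wnt7b, called in sorted cells and with the block in culture, had a log2 effect larger by 1.13 in sorted cells (95% interval 0.14 to 2.12, limma adjusted p = 0.197; 0.0139 with the replicate block). Tcf7 differed by 0.53 (95% interval 0.21 to 0.84, limma adjusted p = 0.0605; 0.0244 with the replicate block). That block also grouped the sorted-cell libraries by replicate number, although these numbers did not pair them. The blocked calls of Wnt7b and Tcf7 therefore rest partly on an arbitrary grouping. Wnt9a differed by 0.16 (95% interval -0.48 to 0.80). The other 17 had differences between -0.39 and 0.30, and none of these was called with the block, which called 14.1% of all genes. The 6 genes tested only in sorted cells, Wnt10a, Wnt10b, Sfrp1, Sfrp4, Axin2 and Lgr5, could not be compared in this way.

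Lgr5 stood below 0.2 RPKM in every culture, at 0.0723, 0.0991, 0.0822 and 0.173 in AdCRE and 0.0188, 0.0411, 0.0191 and 0.0603 in AdGFP. These values were higher in AdCRE, opposite to the sorted cells. At this level no difference between the settings was tested.

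The wider pathway was followed in a list of 100 further Wnt genes, of which 99 were found. In sorted cells 12 of 68 tested were higher in Chd4dPax7ER and 12 lower, 35.3% in all, beside 26.6% of all genes tested. Their median log2 difference was 0.01. The largest was Fst, which encodes the activin and myostatin antagonist follistatin, at 28.7 ± 11.6 and 3.77 ± 1.07 RPKM (SD, n = 4 each; limma log2 difference 2.73, adjusted p = 0.000189). Ptk7, a co-receptor of the planar polarity branch, measured 26.3 ± 2.21 and 8.48 ± 0.938 RPKM (SD, n = 4 each; limma log2 difference 1.58, adjusted p = 2.87e-05). Dact3, an antagonist that binds Dishevelled, measured 6.47 ± 1.83 and 1.43 ± 0.405 RPKM (SD, n = 4 each; log2 difference 1.84). The common target gene Ccnd1, which encodes cyclin D1, measured 52.1 ± 7.34 and 23.1 ± 5.63 RPKM (SD, n = 4 each; limma adjusted p = 0.00155). Bcl9l, a beta-catenin coactivator, rose by 1.08 on the log2 scale, and Twist1, a mesenchymal transcription factor tested only through its case libraries, by 1.70.

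Among the lower genes, Lrp4, the agrin co-receptor that also binds Wnt inhibitors, fell from 8.71 ± 1.29 to 1.95 ± 0.916 RPKM (SD, n = 4 each; limma log2 difference -1.97, adjusted p = 0.000571). Ccn5, a matricellular gene induced by Wnt1, fell from 2.13 ± 0.886 to 0.468 ± 0.219 RPKM (SD, n = 4 each; limma log2 difference -1.40, adjusted p = 0.00645). Of the common target genes, Jun was also higher and Ccn4 lower. Among the 31 canonical core genes tested, 3 were higher and 5 lower, 25.8% in all, close to the 26.6% of all genes tested. Porcn, the acyltransferase that ligands need for secretion, was lower at 0.703 ± 0.227 against 1.66 ± 0.212 RPKM (SD, n = 4 each; limma log2 difference -0.86, adjusted p = 0.0104), with its name given after its value was seen. Cd44, Ctnnb1 and Sdc4 had the highest RPKM of the list in sorted cells; of these Sdc4 was higher in Chd4dPax7ER and the other 2 were not called.

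In culture, Dact3 was the only one of 72 tested pathway genes called by limma without the block, 1 higher and 0 lower (8 at an unadjusted p under 0.05). That is 1.39%, beside 0.656% of all genes tested. Dact3 is described here as the 1 that passed. It measured 5.65 ± 0.662 RPKM in AdCRE and 2.90 ± 0.405 in AdGFP (SD, n = 4 each; limma log2 difference 0.86, adjusted p = 0.0261). Its call was lost when any library but AdCRE replicate 3 was left out (adjusted p up to 0.104). With the block 16 were higher and 12 lower, 38.9% of the 72, close to the 36.2% of all genes tested. Ccnd1, Ctnnb1 and Id2 had the highest RPKM of the list in culture.

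The neighbours of the 5 called genes within 100 kb were read in the sorted cells. Around Wnt10b, 6 neighbours were tested, and Arf3, 7594 bp away, measured 52.0 RPKM in Chd4dPax7ER and 25.6 in Chd4fl/fl (limma log2 difference 1.01, adjusted p = 0.000104). Fkbp11 was higher there too (log2 difference 1.12), while Prkag1 and Rhebl1 were lower, Rnd1 and Kmt2d were not called, and Wnt1, 11651 bp away, was listed at 0. Around Lgr5, 3 neighbours were tested. Zfc3h1, 17542 bp away, measured 15.8 and 32.3 RPKM (limma log2 difference -1.01, adjusted p = 0.000228), and Tmem19 and Thap2 were not called. Around Wnt9a, Arf1 and Snap47 were higher, 2310033P09Rik was not called and Wnt3a was listed at 0. Around Wnt7b, Atxn10 was higher, and around Tcf7, Vdac1 was not called. Over all genes tested, 14.7% were higher and 11.9% lower.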

How the data were processed

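RNA-seq of 8 culture libraries and 8 sorted-cell libraries was used; 8 ATAC-seq samples of the series were not analysed here. The authors deposited 1 RPKM table for each setting; RPKM is by definition relative to gene length and mapped reads, and the sorted-cell values are given to 2 decimals. Per the submitters' processing notes, the tools named for the series include FastQC 0.11.8, cutadapt 1.18, HISAT2 2.1.0, Picard 2.18.15 and DESeq2 3.6, with the builds mm10 and GRCm38; which program counted reads, and over what gene lengths, is not stated there.

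RPKM were transformed to log2(RPKM + 0.5) and tested with limma 3.58.1 (variance trend) in R 4.3.3, over all genes with at least 0.5 RPKM in at least 4 of 8 libraries. P-values were Benjamini-Hochberg adjusted over all genes tested, with a threshold of 0.05. Fold changes on this scale understate those of low genes. The fits without the block in each setting were checked on simulated data with independent libraries. The blocked fits and the fit of the difference between settings were not simulated. A second row named Fzd6, listed at 0 throughout, was dropped.

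The members and lists were chosen with earlier results of these data known. Each of the 50 genes is named, though not every gene is described in both settings. Values per library are given for genes that passed (in culture also with the block), did not overlap at a mean of at least 0.5 RPKM, or were the highest of their role; of other pathway genes, at most 8 that passed, those with the largest log2 difference, and the 3 highest in RPKM are named. Jun, Ccn4 and Porcn were named after their values were seen.

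Groups came from the labels. Same-numbered cultures deviated together (correlations of deviations from group means 0.711, 0.720, 0.852 and 0.856), so the numbers pair them; those of sorted cells did not (-0.0967 to 0.0499). Alternatives were other pseudocounts, filters, scalings, no variance trend, a replicate block and leaving out each library.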

Additional observations from a re-analysis of the deposited data

Results flagged for a closer look

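In 4 of 106 groups of 4 libraries checked (3.77%), 1 library stood apart from the other 3; chance gives about 1 in 20. AdGFP replicate 1 was high in Lef1 (5.04 RPKM) and in Rspo3 (1.95 RPKM). Chd4dPax7ER replicate 3 was high in Fzd4 (8.68 RPKM), and Chd4dPax7ER replicate 4 was low in Fzd8 (1.46 RPKM).

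The effect in sorted cells minus that in culture passed the limma threshold for 6 of the 63 further pathway genes tested in both settings, 9.52% beside 4.12% of all genes. Its log2 value was 2.26 for Fst, 1.26 for Ptk7, 0.98 for Dact3, 0.97 for Bcl9l and 0.60 for Btrc, which encodes the beta-catenin ubiquitin ligase subunit. It was -1.74 for Lrp4.

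Lgr5 was lower in all sorted Chd4dPax7ER libraries than in all controls and higher in all AdCRE cultures than in all AdGFP cultures. This difference was not tested, and the AdCRE mean was only 0.107 RPKM.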

How the results depend on the processing

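In culture, the replicate block moved the number of Wnt genes called from 0 to 8 higher and 5 lower; adding no filter on low values, chosen after seeing the data, gave 7 and 2. Of the 13 genes, 5 were also called with no filter (Wnt7b, Wnt9a, Fzd4, Wnt5a and Fzd1), 8 were lost (Wnt4, Fzd6, Fzd7, Rspo3, Dkk3, Lrp5, Lgr4 and Znrf3), and Wnt10b, Wnt3, Wnt6 and Lgr5 were gained, the last 3 at means under 0.5 RPKM. Leaving out 1 pair with the block, also chosen after seeing the data, gave 3 to 7 higher and 2 to 5 lower; without the pair of replicate 1, 2, 3 or 4 the counts higher were 7, 3, 5 and 4 and the counts lower 2, 5, 2 and 3. Leaving out single cultures without the block left 0 called. Without single cultures the log2 difference of Fzd7 ran from -0.01 (without AdCRE replicate 1, a reversal) to 0.29 (without AdGFP replicate 1). Further pathway genes in culture went from 1 higher and 0 lower to 16 and 12 with the block, and to 0 to 1 higher without single libraries.

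In sorted cells, 2 to 4 Wnt genes were higher and 1 lower without single libraries, with 2 higher without Chd4dPax7ER replicate 3 or Chd4fl/fl replicate 2. The level for testing was applied over all 8 libraries before any was left out. Wnt10b passed it only through the case libraries and Lgr5 only through the controls. Calls of these 2 when a library was left out are therefore no separate support. With that limit, Wnt10b, Wnt7b and Lgr5 were called in all 8 fits that left out a library and in all 8 other alternatives. Tcf7 was called in 6 and 8 of these. Wnt9a was called in 0 and 3, and was lost with TPM scaling, quantile normalization, a filter of 1 RPKM, no filter and the replicate block, where its limma adjusted p was 0.102. Fzd5, not called in the reported fit, was called in 1 (without Chd4fl/fl replicate 3) and 3. The sorted-cell numbers do not pair libraries. A pseudocount of 0.1 gave Lgr5 a log2 difference of -1.91, and 0.1 and 1 gave Wnt10b 4.23 and 2.15.

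Of the differences between settings, 2 were called with the replicate block, which also grouped the unpaired sorted-cell libraries by number. Without single libraries 0 to 1 were called (1 without AdGFP replicate 1, Chd4dPax7ER replicate 1 or Chd4fl/fl replicate 4). Within pairs, the exact permutation p of Chd4 was 0.125 in both settings, the smallest that 16 arrangements allow. In sorted cells the numbers do not pair libraries, so that grouping is arbitrary there. The cause of these changes was not tested. Low RPKM limits what can be said of genes near 0.5 RPKM.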
